A study of Mus musculus with 4 samples.

Results

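Reduced representation bisulfite sequencing (RRBS) of mouse blood cells was used to describe CpG-dense stretches of the genome that are methylated rather than unmethylated in B cells. The genome was divided into autosomal tiles of 1 kb (mm9). A tile counted as CpG-dense when the 4 libraries together covered at least 20 distinct CpGs in it. It was taken as methylated when wild-type B cells had at least 50 summed reads there and a pooled level, the methylated share of all reads over its CpGs, of at least 60%. The tiles were thus chosen by their wild-type B cell level and by the number of covered CpGs. This rule gave 135 tiles among 9265 CpG-dense tiles with 50 or more wild-type B cell reads, a share of 1.46%, and among 421973 covered autosomal tiles in all. Of the other CpG-dense tiles, 308 (3.32%) lay at 20 to 60% and 8822 (95.2%) under 20% in wild-type B cells.

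Each of the 4 conditions was represented by 1 library made from the pooled DNA of 6 to 9 mice on a CBAxC57BL/6J background, so there were no replicates. Sca1-BCL6Δ B cells were B220+ cells of peripheral blood from mice that carried a Bcl6 cDNA under the Sca1 promoter, designed to act in stem and progenitor cells and to be cut out by Cre once Cd79a is switched on. Wild-type B cells were B220+ blood cells of mice without the transgene. Sca1-BCL6Δ HSPCs and wild-type HSPCs were the Sca1+Lin- haematopoietic stem and progenitor cells of the bone marrow of the same kinds of mice. Neither the expression of the transgene nor its removal can be read from these libraries, and ages were not given in the sources used here.

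Most CpGs of the mouse genome are methylated, whereas CpG islands, the dense clusters found at many gene starts, are usually kept free of methylation. Known exceptions in blood and other somatic tissues are the starts of genes used only in germ cells, the methylated alleles of imprinted genes, and islands inside or at the end of transcribed genes. Methylation of an island at a gene start is associated with silencing, whereas methylation inside a gene is found in active genes as well.

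The promoter sequences of 4 genes that fell wholly or partly in such tiles are shown because they hold some of the CpGs of these tiles. The tile levels described further on also cover CpGs outside these stretches, and the Mael stretch runs past the end of its tile. They are the 250 bases before the annotated start in the RefSeq table (GRCm38.p6), written 5′ to 3′ with each CG in capitals. Their mm9 positions were found by matching the spacing of their CGs to the positions of the deposited CpGs. On mm9 the Mael stretch is chr1:168168876-168169125 (minus strand), the Boll stretch chr1:55419573-55419822 (minus strand), the Mcts2 stretch chr2:152512634-152512883 (plus strand) and the Hoxa5 stretch chr6:52154587-52154836 (minus strand).
Mael: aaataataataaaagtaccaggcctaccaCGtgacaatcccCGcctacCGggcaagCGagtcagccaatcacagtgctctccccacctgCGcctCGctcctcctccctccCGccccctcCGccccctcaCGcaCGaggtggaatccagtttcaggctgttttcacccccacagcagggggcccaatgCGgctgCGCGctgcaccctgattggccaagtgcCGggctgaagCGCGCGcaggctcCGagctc
Boll: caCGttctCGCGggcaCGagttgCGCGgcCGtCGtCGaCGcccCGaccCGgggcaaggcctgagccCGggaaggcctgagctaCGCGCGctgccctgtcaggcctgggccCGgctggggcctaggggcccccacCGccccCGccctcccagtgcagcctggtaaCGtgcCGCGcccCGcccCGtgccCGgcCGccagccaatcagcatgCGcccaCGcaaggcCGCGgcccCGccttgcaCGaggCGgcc
Mcts2: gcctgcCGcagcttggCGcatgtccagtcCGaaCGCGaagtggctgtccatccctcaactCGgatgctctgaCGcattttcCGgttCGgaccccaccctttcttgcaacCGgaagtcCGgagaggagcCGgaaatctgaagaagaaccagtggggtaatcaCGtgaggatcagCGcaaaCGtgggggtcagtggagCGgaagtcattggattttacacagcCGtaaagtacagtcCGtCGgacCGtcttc
Hoxa5: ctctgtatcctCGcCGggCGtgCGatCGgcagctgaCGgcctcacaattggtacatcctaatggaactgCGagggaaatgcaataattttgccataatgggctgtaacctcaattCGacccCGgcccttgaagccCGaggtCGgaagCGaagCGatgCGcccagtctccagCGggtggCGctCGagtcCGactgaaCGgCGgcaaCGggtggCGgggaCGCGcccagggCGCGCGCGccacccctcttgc
These stretches held 18 CGs in Mael, 33 in Boll, 20 in Mcts2 and 28 in Hoxa5. The median was 6 in 250 bases over 32851 promoter windows of the RefSeq table. The tiles were chosen for many covered CpGs and the promoters matched by theirs. A count above that median thus follows largely from the choice and is not a result. The ratio of observed to expected CG was 0.75, 0.88, 0.98 and 1.11 in the same gene order. The letters CACGTG, the core of the E-box read by basic helix-loop-helix factors such as Myc, occurred in Mael and Mcts2. The letters TCCCGC, a core of sites read by E2F factors, occurred in Mael. Both were searched on either strand. Over all 10 promoters that touched a methylated CpG-dense tile, 5 held CACGTG, against 6.02% of all windows of this length and 9.37% of the 12417 windows with 10 or more CGs. TCCCGC occurred in 2 of the 10, against 16.9% and 37.3% of the same windows. The letters of the 2 motifs did not overlap in any of the 10 promoters, and a match is a description of letters, not of binding.

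Most of the 135 tiles had high levels in all 4 libraries, with exceptions in each library but that of wild-type B cells (the plot of pooled levels by library). Among tiles with at least 50 reads in the library in question, the median pooled level was 96.1% in Sca1-BCL6Δ B cells (131 tiles), 95.4% in the wild-type B cells (135 tiles), 94.3% in Sca1-BCL6Δ HSPCs (127 tiles) and 86.6% in wild-type HSPCs (133 tiles). Wild-type B cell levels chose the tiles and are given as a description. The lowest level of any tile was 30.8% in Sca1-BCL6Δ B cells, 61.9% in the wild-type B cells, 47.3% in Sca1-BCL6Δ HSPCs and 30.1% in wild-type HSPCs. A level under 60% was found in 8 tiles of Sca1-BCL6Δ B cells, 4 of Sca1-BCL6Δ HSPCs and 15 of wild-type HSPCs. None of the 135 tiles lay under 20% in any library in which it had 50 reads. Levels of 95% or more were found in 75, 72 and 58 tiles of Sca1-BCL6Δ B cells, wild-type B cells and Sca1-BCL6Δ HSPCs, and in 15 tiles of wild-type HSPCs. Of 126 tiles with 50 reads in every library, 108 had at least 60%, 81 at least 80% and 41 at least 90% in all 4. The wild-type HSPC library gave the lowest of the 4 levels in 93 of these 126 tiles.

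**Figure D1:**
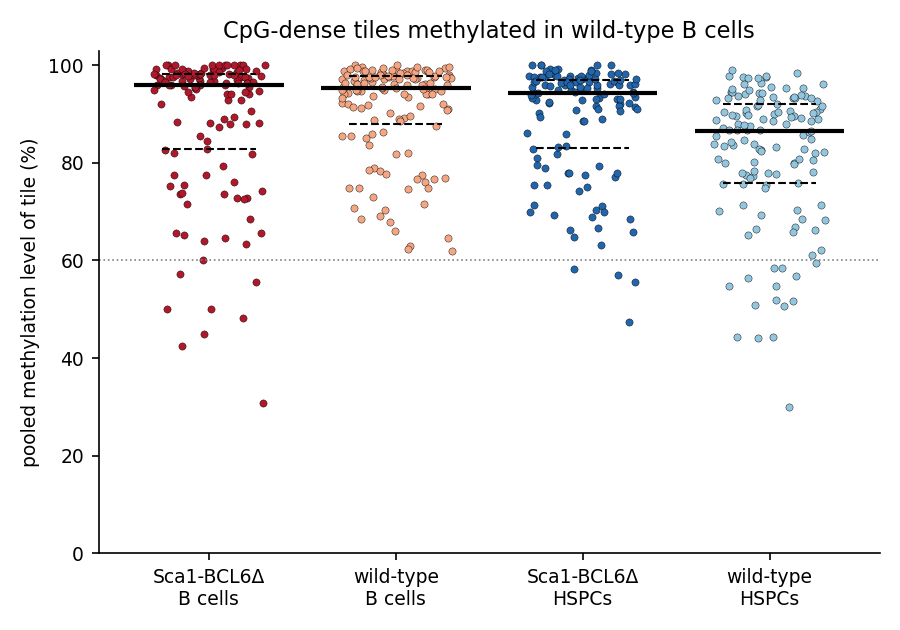
Pooled methylation level (%) of each methylated CpG-dense tile with at least 50 reads, in Sca1-BCL6Δ B cells, wild-type B cells, Sca1-BCL6Δ HSPCs and wild-type HSPCs. Each point is a tile, solid lines are medians (96.1, 95.4, 94.3 and 86.6%), dashed lines are quartiles, and the dotted line marks the 60% limit that was applied to wild-type B cells.

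The position of wild-type HSPCs was not particular to these tiles. At 45924 autosomal CpGs of at least 98% in Sca1-BCL6Δ B cells, the pooled level was 97.1% in wild-type B cells, 95.1% in Sca1-BCL6Δ HSPCs and 82.7% in wild-type HSPCs. Whether the lower level of wild-type HSPCs belongs to the cells or to the library cannot be told apart with 1 library per condition. Mean coverage per CpG was 6.48 reads in Sca1-BCL6Δ B cells, 10.98 in the wild-type B cells, 5.45 in Sca1-BCL6Δ HSPCs and 7.48 in wild-type HSPCs. The tiles described here had medians of 124, 251, 107 and 147 summed reads in that library order, and no CpG of theirs had more than 57 reads. Intervals given below are 95% Wilson intervals on summed reads. They cover counting error only, and since neighbouring CpGs share reads they are too narrow.

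Levels of single CpGs within the tiles were counted as well. Among CpGs with at least 5 reads, 79.6% of 1769 CpGs were at 80% or more in Sca1-BCL6Δ B cells, 83.7% of 2704 in the wild-type B cells, 82.5% of 1562 in Sca1-BCL6Δ HSPCs and 66.1% of 2030 in wild-type HSPCs. CpGs of 20% or less made up 1.36%, 0.629%, 0.768% and 2.71% of the CpGs in the same library order. Some tiles were mixtures. In wild-type HSPCs the tile chr6:52125001-52126000 had 7 CpGs at 80% or more and 9 at 20% or less among 26.

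Reads that held 4 or more CpGs give the pattern on single molecules (the plot of read patterns). Every CpG was methylated in 73.1% of 2106 such reads of Sca1-BCL6Δ B cells, 76.9% of 3984 of wild-type B cells, 74.6% of 1851 of Sca1-BCL6Δ HSPCs and 63.5% of 2420 of wild-type HSPCs. No CpG was methylated in 4.99%, 3.09%, 3.62% and 7.73% of these reads. Reads with both kinds of CpG made up 21.9%, 19.98%, 21.8% and 28.8%. CpG-poor tiles were those with fewer than 20 covered CpGs and at least 50 summed wild-type B cell reads. Their sequence need not be poor in CpGs, since only covered CpGs count. In CpG-poor tiles of 60% or more in wild-type B cells, fully methylated reads made up 83.0%, 84.8%, 80.8% and 69.1%, with the same library lowest.

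**Figure D2:**
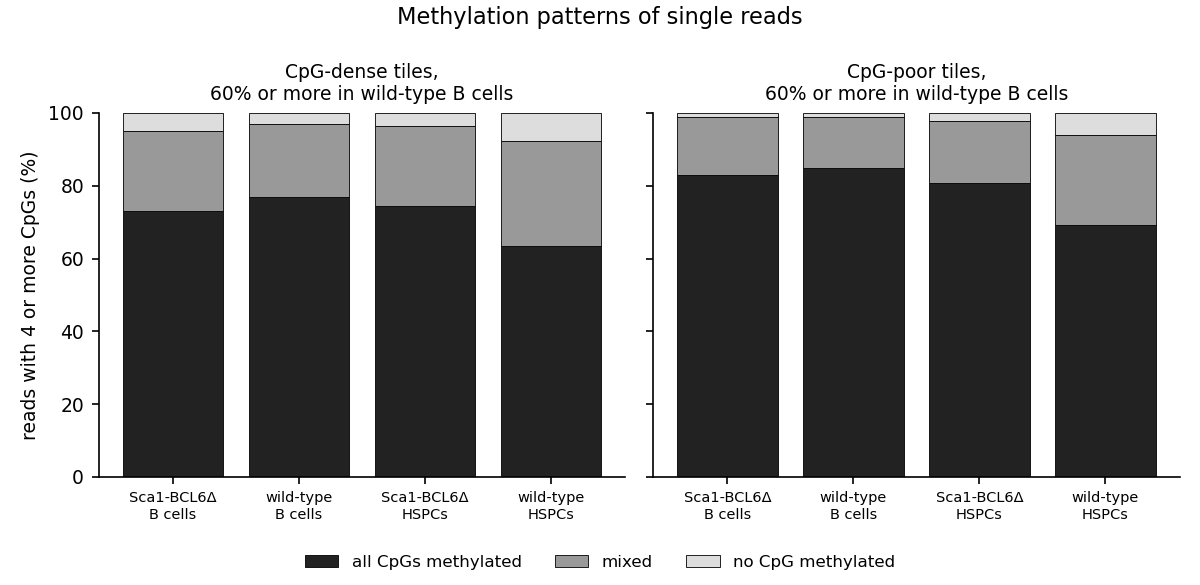
Share (%) of reads with 4 or more CpGs in which all, some or none of the CpGs were methylated, in methylated CpG-dense tiles (left) and methylated CpG-poor tiles (right), for Sca1-BCL6Δ B cells, wild-type B cells, Sca1-BCL6Δ HSPCs and wild-type HSPCs. Fully methylated reads make up 73.1, 76.9, 74.6 and 63.5% in the CpG-dense tiles.

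Methylated tiles were found more often among the less dense tiles. They made up 2.95% of tiles with 20 to 24 CpGs (78 of 2641), 1.67% with 25 to 29, 0.578% with 30 to 39 and 0.449% with 40 or more (10 of 2229). The 135 tiles held 3510 CpGs, with a median of 23 and a range of 20 to 68 per tile, and 24 tiles had 30 or more. They lay on 18 of the 19 autosomes, with 18 on chromosome 7 and 14 on chromosome 10, and none among the 271 CpG-dense tiles of chromosome 18. There were 5 pairs of adjacent tiles. Among 82 directly neighbouring tiles with at least 3 CpGs and 20 reads in Sca1-BCL6Δ B cells, the median level there was 96.2%, and 7 neighbours lay under 20%.

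Gene starts were rare in these tiles. A promoter window, the 250 bases before and 50 after an annotated start, could be matched to 10 of the 135 tiles (7.41%). The same matching placed one in 53.4% of CpG-dense tiles under 20%, in 27.6% of those at 20 to 60% and in 0.776% of methylated CpG-poor tiles. These shares count only the 9008 genes whose promoter could be matched. The classes differ in the number of covered CpGs, by which promoters were matched, so the shares describe the matched set.

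Of the 10 promoters, 1 belongs to the list of 56 germline genes described further on, that of Mael. Boll, Dmrtb1 and Rbmxl2, which also have roles in germ cells, are not on that list and were noted after the tiles were known. Mael acts in the piRNA pathway that silences transposons in germ cells. The tile chr1:168168001-168169000 holds its start and 175 bp of its promoter window. It had 94.7% methylation in Sca1-BCL6Δ B cells, 98.03% in the wild-type B cells, 93.5% in Sca1-BCL6Δ HSPCs and 94.3% in wild-type HSPCs. The 4 libraries thus lay within 5 percentage points of one another at Mael, wild-type HSPCs included. The tile chr1:55419001-55420000 holds a start of Boll, an RNA-binding protein of the DAZ family needed in spermatogenesis, and had 88.2%, 89.3%, 81.0% and 82.2% in the same library order. The methylation at Boll was bounded. At -800 to -601 bp from that start, outside the tile, 19 CpGs were pooled. Their level was 8.78% in Sca1-BCL6Δ B cells (148 summed reads) and 8.33% in the wild-type B cells (372 summed reads). It was 5.06% in Sca1-BCL6Δ HSPCs (237 summed reads) and 18.3% in wild-type HSPCs (263 summed reads).

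Dmrtb1 encodes a DM-domain transcription factor of male germ cells, and the matched start is an alternative one that lies inside the gene. Its tile chr4:107356001-107357000 had 96.1% in Sca1-BCL6Δ B cells, 96.0% in the wild-type B cells, 96.1% in Sca1-BCL6Δ HSPCs and 80.8% in wild-type HSPCs, so 3 libraries agreed within 1 percentage point and wild-type HSPCs stood lower. Rbmxl2, a testis RNA-binding protein derived from Rbmx, gave the tile with the most CpGs of all, 68, at chr7:114353001-114354000. Its promoter window shared 8 bases with that tile, which otherwise covers the short gene itself. The level there was 50.2% in Sca1-BCL6Δ B cells (interval 44.7 to 55.6%), 62.4% in the wild-type B cells (58.1 to 66.5%), 55.5% in Sca1-BCL6Δ HSPCs (48.9 to 61.9%) and 50.8% in wild-type HSPCs (44.6 to 56.9%). Reads with 4 or more CpGs were mixed in 85.4% of 48, 78.9% of 71, 78.1% of 32 and 87.2% of 39 cases, so Rbmxl2 was partly methylated on most molecules rather than on a share of them.

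Mcts2 is an imprinted gene that arose by retrotransposition. Its promoter tile chr2:152512001-152513000 had 96.5% in Sca1-BCL6Δ B cells (85 summed reads) and 97.8% in the wild-type B cells (89 summed reads). It had 96.6% in Sca1-BCL6Δ HSPCs (29 summed reads) and 83.8% in wild-type HSPCs (68 summed reads). The Hoxa5 tile, chr6:52154001-52155000, holds the start of a homeobox gene of body patterning and had 85.5%, 91.3%, 93.2% and 80.2% over its 42 CpGs. Slc6a16, a member of the solute carrier 6 family, had 73.6%, 78.6%, 89.0% and 75.7% at chr7:52496001-52497000. The remaining promoters were those of 4933428G20Rik (100%, 96.5%, 100% and 96.2% at chr11:97361001-97362000), Gm10863 (96.0%, 97.4%, 96.7% and 84.6% at chr15:78996001-78997000) and 1700030C10Rik, which had the lowest level of any tile in Sca1-BCL6Δ B cells and is described with the genotype differences.

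**Figure D3:**
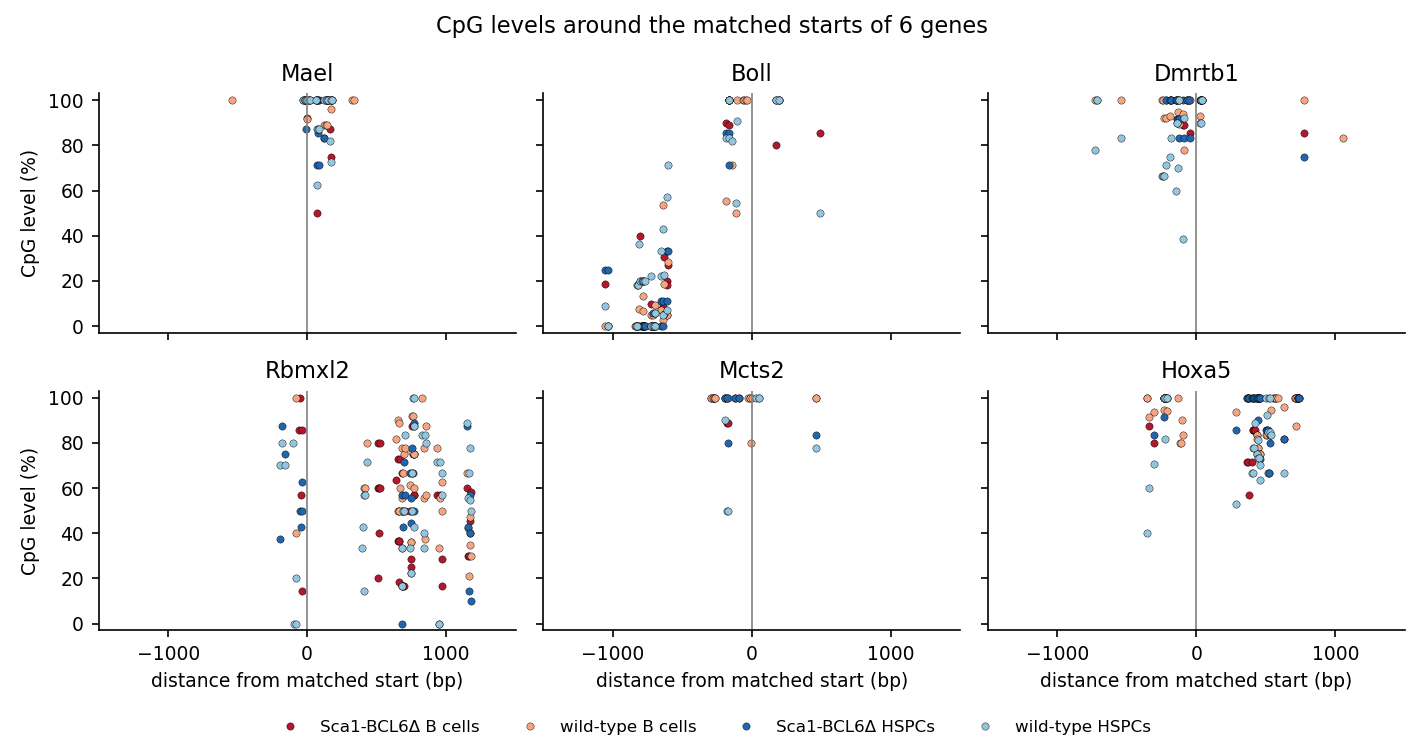
Level (%) of each CpG with at least 5 reads within 1500 bp of the matched start of Mael, Boll, Dmrtb1, Rbmxl2, Mcts2 and Hoxa5, with colours for Sca1-BCL6Δ B cells, wild-type B cells, Sca1-BCL6Δ HSPCs and wild-type HSPCs. CpGs next to the start of Mael, Dmrtb1 and Mcts2 lie mostly near 100%, and those of Rbmxl2 are spread over the whole range. Boll CpGs lie mostly high around the start and mostly low at -601 bp and further upstream.

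Germline promoters inside and outside these tiles were read from the list of 56 genes chosen with earlier results in view. A promoter of 21 of them was matched, and 15 had at least 20 reads in every library. Of these 15, 9 had 60% or more in wild-type B cells, 3 lay at 20 to 60% and 3 under 20%. Across all 6433 matched promoters with that many reads, 101 (1.57%) had 60% or more. The median over the 15 was 84.0% in Sca1-BCL6Δ B cells, 92.9% in the wild-type B cells, 87.8% in Sca1-BCL6Δ HSPCs and 77.6% in wild-type HSPCs. Methylated promoters included those of Sycp1, a synaptonemal complex protein (98%, 97.7%, 95.3% and 94.8%), Hormad1, a meiotic chromosome axis protein (94.2%, 92.9%, 97.1% and 90.3%), and Ddx4, the germ cell helicase Vasa (97.6%, 95.3%, 97.4% and 92.5%). Tdrd5 and Cpeb1, also genes with roles in germ cells, had 4.29% and 4.78% in wild-type B cells. Mael was the only one of the 15 whose promoter window touched a methylated CpG-dense tile. The Ddx4 window held 38 CGs in its sequence, of which 8 were covered. Methylated promoters rich in CGs can thus lie outside these tiles. Of 32 imprinted genes 8 could be read. Mcts2 was the one of 60% or more in wild-type B cells, while 3 lay at 20 to 60% and 4 under 20%. Alleles were not told apart, so whether the level of Mcts2 relates to its imprinting was not tested. Promoters of the B cell, myeloid, T cell and pluripotency lists had no matched promoter with 20 reads in every library. Of the HSPC list 1 could be read, Gata2, at 6.45%, 11.96%, 30.3% and 4.69%.

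Many of the methylated CpG-dense tiles lay inside genes, and most of those beyond 80% of the gene's length. Away from the 10 promoter tiles, 67 of the 135 tiles (49.6%) fell inside 63 protein-coding genes, placed by their distance from the matched start and the gene's RefSeq length. The median position was 86.5% of the way along the gene. The stretch beyond 80% of the gene's length held 39 of the 67 (58.2%), and 27 lay within 3 kb of its end. Of methylated CpG-poor tiles placed the same way, 30.6% lay beyond 80%, and of CpG-dense tiles under 20%, 5.52%. Of 70 CpG-dense tiles of at least 20% but short of the methylated limit, 17.1% lay beyond 80%. The share within 3 kb of the gene's end was 40.3% for the methylated CpG-dense tiles and 34.3% for these 70. It was 14.5% for methylated CpG-poor tiles and 12.1% for CpG-dense tiles under 20%. Lying within 3 kb of the end was thus not particular to methylated CpG-dense tiles. Exons, introns and untranslated regions could not be assigned, and 58 tiles had no matched gene.

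**Figure D4:**
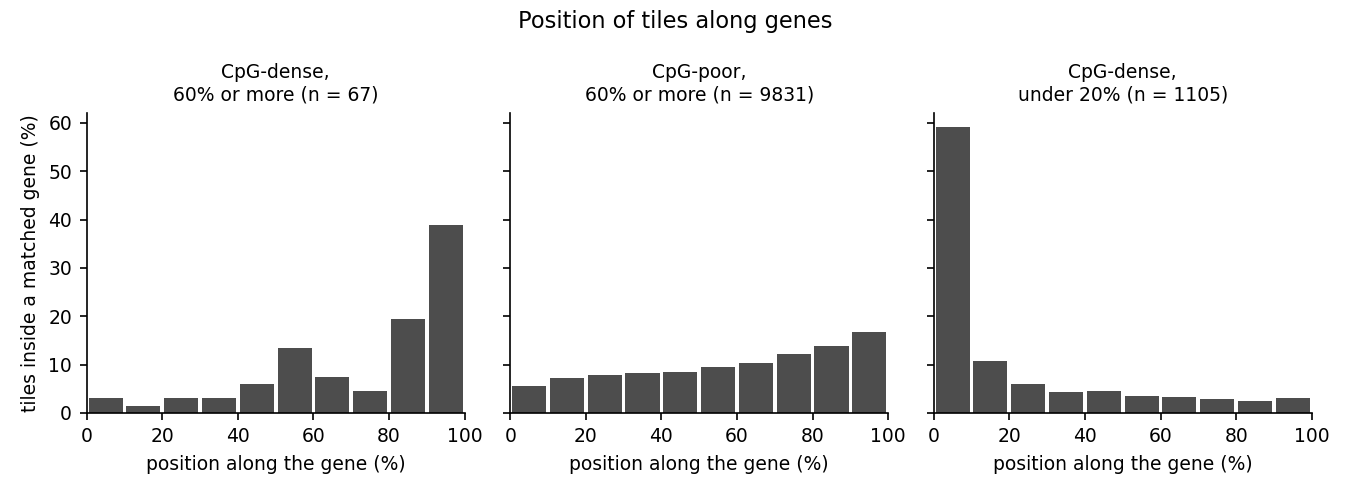
Share (%) of tiles by their position along the gene in steps of 10%, with 0% at the gene's start and 100% at the gene's end, for methylated CpG-dense tiles (67), methylated CpG-poor tiles (9831) and CpG-dense tiles under 20% in wild-type B cells (1105). The stretch beyond 80% holds 58.2, 30.6 and 5.52% of the tiles.

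The deepest of these tiles lay near the end of Zfpm1, which encodes the GATA-factor partner FOG1. Its tile chr8:124860001-124861000 had 59 CpGs and 96.5% in Sca1-BCL6Δ B cells, 98.8% in the wild-type B cells, 99.1% in Sca1-BCL6Δ HSPCs and 93.2% in wild-type HSPCs, on 342 to 648 reads. The adjacent tile had 98.5%, 99.1%, 97.2% and 97.9%. Runx1, a transcription factor required for blood formation, held a tile at chr16:92606001-92607000, 97.9% along the gene, with 96.6%, 99.6%, 100% (44 reads) and 97.5%. At both genes all 4 libraries were thus above 93%.
Hivep1, a zinc finger DNA-binding protein, had 99.3%, 97.6%, 97.6% and 90.7% at chr13:42279001-42280000, within 1 kb of its end. Ror2, a receptor for Wnt ligands, had 95.9%, 97.5%, 93.2% and 86.7% at chr13:53206001-53207000. Shroom3, an actin-binding protein of epithelial shape, had 98.97%, 98.9%, 97.1% and 83.4% over 44 CpGs at chr5:93371001-93372000. In these 3 genes the wild-type HSPC level was the lowest.
Not all tiles at gene ends were fully methylated. Sema6b, a transmembrane semaphorin, had 48.2% (interval 43.0 to 53.5%) in Sca1-BCL6Δ B cells, 61.9% (57.5 to 66.1%) in wild-type B cells, 69.0% (63.7 to 73.9%) in Sca1-BCL6Δ HSPCs and 59.4% (53.2 to 65.4%) in wild-type HSPCs at chr17:56263001-56264000. Hivep1, Runx1 and Ror2 were chosen as examples after their values were seen.

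The HSPC genotype comparison asked whether these tiles differ in the cell type the transgene was aimed at, and it does not use the library that chose them. No tile was called. The Cochran-Mantel-Haenszel chi-square test compared reads at CpGs that had 10 or more reads in each library and lay more than 50 bp apart. It was run in tiles with 3 or more such CpGs before thinning, with Benjamini-Hochberg adjustment over all tiles. A call needed an adjusted p below 0.05 together with 20 percentage points between the mean CpG levels. Of 28 tiles with enough reads, 0 were called higher and 0 lower in Sca1-BCL6Δ HSPCs, against 0.00894% and 0.0179% of 11191 tiles across the genome. An unadjusted p under 0.05 was found in 3 of the 28, against 3.63% of all tiles tested. Thinning left a single CpG in 14 of the 28. Of 184 CpGs compared by two-sided Fisher's exact test, 0 were called, against 0.025% higher and 0.012% lower of 99971. An unadjusted p under 0.05 was found in 21 of the 184, against 4.44% of all CpGs tested. Both shares of unadjusted p were thus larger than those over all tiles and CpGs, though neighbouring CpGs share reads. These tests compare the reads of 2 libraries, not conditions.

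Pooled levels leaned towards the Sca1-BCL6Δ library. Of 127 tiles with 50 reads in both HSPC libraries, 107 had the higher level in Sca1-BCL6Δ HSPCs and 20 in wild-type HSPCs, with a median difference of 6.43 percentage points. A difference of 20 points or more was found in 10 tiles higher (7.87%) and 0 lower in Sca1-BCL6Δ HSPCs, against 2.05% higher and 1.59% lower of 17502 autosomal tiles. Methylated CpG-poor tiles gave a median of 8.88 points, with 11.8% higher by 20 points and 1.21% lower. The lean thus accompanied the lower level of the wild-type HSPC library at methylated CpGs at large. When the 17.3% of methylation missing in wild-type HSPCs at highly methylated CpGs was also removed at random from the Sca1-BCL6Δ HSPC reads, the median difference of the tiles became -9.12 points. The Sca1-BCL6Δ HSPC library was itself at 95.1% at those CpGs, so this removal exceeds the gap between the 2 libraries.

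The tile chr7:25162001-25163000 differed most between the HSPC libraries. It lies between the matched starts of Zfp94, 60.8 kb to its left, and Cadm4, 104.5 kb to its right, and in no matched gene. Its pooled level was 78.9% in Sca1-BCL6Δ HSPCs (interval 72.1 to 84.4%, 166 reads) and 30.1% in wild-type HSPCs (25.1 to 35.5%, 296 reads). Sca1-BCL6Δ B cells had 72.5% and wild-type B cells 85.4%, so wild-type HSPCs stood alone. Over 5 CpGs of at least 10 reads the means were 70.7% in Sca1-BCL6Δ HSPCs and 15.1% in wild-type HSPCs, a difference of 55.6 points. Thinning left 1 of these CpGs for the test, which gave an adjusted p = 0.154 by the Cochran-Mantel-Haenszel chi-square test. The exact conditional test on the same reads gave an adjusted p of 0.0464 and a call, where it called 0.0626% of all tiles higher.
CpGs of at least 5 reads raised the number of methylated CpG-dense tiles tested to 124, and this tile was the 1 called, against 0.00813% called higher and 0.0108% lower of 36885 tiles. Its means over 14 CpGs, 4 of them left by thinning, were 85.4% in Sca1-BCL6Δ HSPCs against 27.1% in wild-type HSPCs (adjusted p = 0.000517, Cochran-Mantel-Haenszel chi-square test). With CpGs of 10 reads the Cochran-Mantel-Haenszel test called no methylated CpG-dense tile, either before or after the removal of 17.3% of the methylation. The removal was not run with CpGs of at least 5 reads, so it does not bear on the call made there. Without thinning 5 of the 28 were called, against 1.75% higher and 1.46% lower of all tiles. Of the reads of chr7:25162001-25163000 with 4 or more CpGs, 0 of 10 in Sca1-BCL6Δ HSPCs and 14 of 22 in wild-type HSPCs had no methylated CpG. Its CpGs at 25162319 and 25162326 were methylated in 12 and 14 of 16 reads of Sca1-BCL6Δ HSPCs, against 2 and 4 of 20 reads of wild-type HSPCs, with adjusted p = 0.0524 and 0.0638 by Fisher's exact test.

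**Figure D5:**
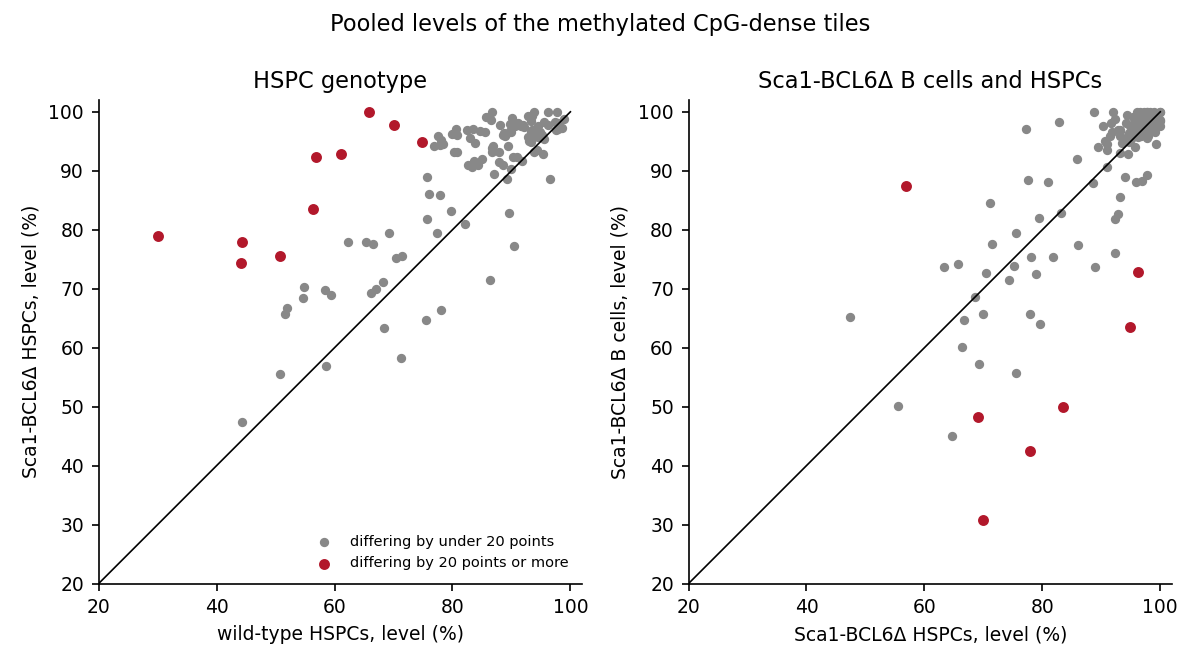
Pooled level (%) of each methylated CpG-dense tile in Sca1-BCL6Δ HSPCs against wild-type HSPCs (left, 127 tiles) and in Sca1-BCL6Δ B cells against Sca1-BCL6Δ HSPCs (right, 126 tiles); the diagonal marks equal levels and red points differ by 20 points or more. On the left 10 tiles lie that far above the diagonal and 0 below it, and on the right 1 lies above and 6 below.

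The other 9 tiles higher by 20 points differed by 20.1 to 35.6 points, and of these 9 the tile chr4:140425001-140426000 alone had enough deep CpGs for the test. The tile chr8:91151001-91152000 had 92.4% in Sca1-BCL6Δ HSPCs and 56.8% in wild-type HSPCs, and chr4:116976001-116977000 had 100% and 65.9%. Begain, a gene named for its product's binding to the synaptic scaffold, held the tile chr12:110272001-110273000 near its end, with 97.8% and 70.1%. The tile chr10:126763001-126764000, between Ddit3 and R3hdm2, had 74.3% in Sca1-BCL6Δ HSPCs and 44.1% in wild-type HSPCs, and 71.5% and 72.9% in Sca1-BCL6Δ and wild-type B cells. The tile chr6:88140001-88141000 lies 6.88 kb from the nearest matched start, that of Gm38708. This tile and the 3 before chr10:126763001 were named after their values were seen. It had 92.9% in Sca1-BCL6Δ HSPCs (155 reads) and 61.0% in wild-type HSPCs (172 reads), with 82.7% in Sca1-BCL6Δ B cells and 88.5% in wild-type B cells. In both tiles wild-type HSPCs were the library apart. The next lowest p-values after that of chr7:25162001 were those of the Sema6b tile (mean CpG levels 90% and 52.3%) and of chr4:140425001-140426000 (81.0% and 36.8%), in Sca1-BCL6Δ and wild-type HSPCs, each with an adjusted p of 1. These means cover the tested CpGs only. Pooled over all CpGs, the Sema6b tile had 69.0% and 59.4%, and chr4:140425001 had 75.6% and 50.7%. The smallest p-values in the other direction were at chr17:32533001-32534000, with 89.2% in the Sca1-BCL6Δ library against 90.9% in the wild-type library, and at chr15:88898001-88899000, with 72.7% against 92.3%, again with an adjusted p of 1. Pooled levels there were 94.9% against 93.4%, the opposite direction, and 64.8% against 75.5%.

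The comparison of Sca1-BCL6Δ B cells with Sca1-BCL6Δ HSPCs asked what differs between the cell types within 1 genotype. It compares no wild-type reads, but the tiles were chosen by a high level in wild-type B cells. Tiles low in B cells of both genotypes were thus left out beforehand, which limits what the counts of higher and lower tiles can show. Of 23 tiles tested, 0 were called higher and 0 lower, against 0.00902% and 0.018% of 11089 tiles. An unadjusted p under 0.05 was found in 1 of the 23, against 1.65% of all tiles tested. Thinning left a single CpG in 17 of the 23. Of 145 CpGs compared by two-sided Fisher's exact test, 0 were called, against 0.00915% in each direction of 98408. An unadjusted p under 0.05 was found in 1 of the 145, against 1.74% of all CpGs tested. With CpGs of at least 5 reads 0 of 120 tiles were called, against 0.0138% higher and 0.0194% lower of 36149 tiles. Without thinning 1 of the 23 was called, against 0.496% higher and 0.613% lower of all tiles. Pooled levels were higher in B cells in 70 and lower in 53 of 126 tiles, with a median difference of 0.755 points. In 1 tile B cells were higher by 20 points and in 6 lower (4.76%), against 0.845% higher and 1.22% lower of 17162 autosomal tiles. Those autosomal tiles had a median of 9.56% in Sca1-BCL6Δ HSPCs, so most could not fall by 20 points. The tiles described here had 94.4%, so most could not rise by as much. Methylated CpG-poor tiles gave 2.9% higher and 1.01% lower. CpG-dense tiles of at least 20% in wild-type B cells but short of the methylated limit gave 1.44% and 3.24%.
The tile that was higher lies at chr8:73122001-73123000 near the end of Ssbp4, which encodes a single-stranded DNA-binding protein. It had 87.3% in Sca1-BCL6Δ B cells (interval 78.2 to 93.0%) and 57.0% in Sca1-BCL6Δ HSPCs (46.0 to 67.3%), and the wild-type libraries had 86.3% in B cells and 58.5% in HSPCs. The B cell libraries thus stood above both HSPC libraries. Over its 4 tested CpGs the means were 95% in Sca1-BCL6Δ B cells and 64.8% in Sca1-BCL6Δ HSPCs (adjusted p = 1, Cochran-Mantel-Haenszel chi-square test, and 0.492 by the exact conditional test). The adjacent tile, closer to the end of Ssbp4, had 99.4% in Sca1-BCL6Δ B cells, 99.4% in the wild-type B cells, 94.3% in Sca1-BCL6Δ HSPCs and 89.5% in wild-type HSPCs. The next higher tile by p lies in Pxdn, a peroxidase of the extracellular matrix (chr12:30687001-30688000), with means of 100% in B cells and 95.4% in HSPCs. The lower tiles of smallest p were chr4:140425001-140426000 and chr2:37649001-37650000 in Crb2, a protein of epithelial polarity. Their means over the tested CpGs were 47.2% in B cells and 81.0% in HSPCs, and 69.9% and 84.6%. Pooled over all its CpGs, Pxdn had 97.9% in B cells and 96.1% in HSPCs. Pooled levels at chr4:140425001 were 55.6% and 75.6%, and those in Crb2 64.7% and 66.7%, so the Crb2 gap was confined to its tested CpGs. These 3 tiles had an adjusted p of 1.

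The B cell genotype comparison shares its Sca1-BCL6Δ library with the preceding one. Of 131 tiles with 50 reads in both B cell libraries, 66 were higher and 65 lower in Sca1-BCL6Δ B cells, with a median difference of 0.0346 points, 0 higher and 6 lower by 20 points. Across all 21939 autosomal tiles 0.675% were higher and 0.912% lower by that much. The wild-type B cell level chose the tiles, so nothing is read from these counts.
The largest such difference was at chr12:20821001-20822000, with the promoter of 1700030C10Rik. It had 30.8% in Sca1-BCL6Δ B cells (interval 23.6 to 39.1%, 133 reads), 68.6% in the wild-type B cells, 69.9% in Sca1-BCL6Δ HSPCs and 66.9% in wild-type HSPCs. The libraries did not cover the same CpGs of this tile to the same depth. In the promoter window itself the levels were 12.8% in Sca1-BCL6Δ B cells (47 reads), 42.9% in the wild-type B cells (21 reads), 48.1% in Sca1-BCL6Δ HSPCs (27 reads) and 83.3% in wild-type HSPCs (18 reads), so Sca1-BCL6Δ B cells were lowest there too and the other libraries differed widely. The tile chr15:88898001-88899000 had 45.0%, 69.2%, 64.8% and 75.5% in the same library order. The tile chr6:52125001-52126000, 1.7 kb from the matched start of 5730596B20Rik and 29 kb from the Hoxa5 tile, had 42.5%, 74.9%, 77.9% and 44.3%, so it was low in 1 library of each cell type.

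Between the wild-type libraries, B cells were higher in 124 and lower in 9 of 133 tiles, with a median difference of 7.62 points. By 20 points 11 were higher (8.27%) and 0 lower (background 6.97% and 1.55% of 28839 tiles). Methylated CpG-poor tiles gave a larger median of 11.7 points, with 21.7% higher and 0.083% lower by 20 points. This contrast too contains the library that chose the tiles and is a description. The lowest levels in Sca1-BCL6Δ HSPCs were 47.3% at chr11:116084001-116085000, against 65.2% in Sca1-BCL6Δ B cells, 70.8% in the wild-type B cells and 44.4% in wild-type HSPCs, followed by Rbmxl2 and by the Ssbp4 tile at chr8:73122001.

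Around the 60% limit there were few tiles, 4 at 60 to 65% and 4 at 55 to 60% in wild-type B cells. Just inside it were the Sema6b tile (61.9%) and the Rbmxl2 tile (62.4%). Just outside were chr17:56651001-56652000, with 61.7% in Sca1-BCL6Δ B cells, 58.8% in the wild-type B cells, 67.2% in Sca1-BCL6Δ HSPCs and 51.1% in wild-type HSPCs, and chr4:148326001-148327000, with 19.9%, 59.2%, 88.0% and 39.9%. The remaining tile among the 5 with most CpGs, chr7:17471001-17472000, had 43 CpGs and 73.6%, 76.9%, 63.3% and 68.4% in the same library order.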

How the data were processed

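Per the labels' protocols, DNA pooled from 6 to 9 mice was cut with MspI and TaqI, and fragments of 40 to 350 bp were converted and amplified for 18 PCR cycles. The build was mm9, per the submitters' processing notes. Sources used here do not give the aligner's version, and no removal of PCR duplicates was recorded. The deposited CpG tables gave for every CpG a pair of read counts, methylated and total, and a score, per the file headers the mean methylation. The deposited read tables gave the percent of each read's CpGs that were methylated and their count. Summed counts per tile gave pooled levels.

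RefSeq promoters (GRCm38.p6) were matched by CG spacing to deposited CpGs, first with at least 8 agreeing CpGs (6324 windows, of which 99.2% shared their shift with a neighbour and 51 were dropped), then with at least 4 at the shift of nearby matches (3918 windows, 9008 genes in all). No coordinate was converted between builds. Tiles named were the 5 with most CpGs, those of smallest p in each tested comparison, the 3 lowest per library other than wild-type B cells, 2 on each side of the limit, and those with a matched promoter. The tile and CpG tests were tested on simulated data. Python 3.11.15, scipy 1.17.1 and statsmodels 0.14.6 were used. The tiles and gene lists were chosen with earlier results of these data known.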

Additional observations from a re-analysis of the deposited data

Results flagged for a closer look

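Of 126 methylated CpG-dense tiles with 50 reads in every library, 3 differed between genotypes by 20 percentage points or more in opposite directions in B cells and HSPCs. Differences of opposite sign, of any size, were found in 63 of the 126. The same count was not made over all autosomal tiles, so it is not read as particular to these tiles. At chr6:52125001-52126000 the Sca1-BCL6Δ level minus the wild-type level was -32.4 points in B cells and 33.5 points in HSPCs. At chr14:22810001-22811000, 1.7 kb from the matched start of Zfp503, these differences were -26.8 and 27.2 points. At chr5:111848001-111849000 they were -33.7 and 20.1 points. Sca1-BCL6Δ B cells had 42.5%, 50% and 63.5% in these tiles in that order, against 74.9%, 76.8% and 97.2% in wild-type B cells. Sca1-BCL6Δ HSPCs had 77.9%, 83.5% and 94.9%, against 44.3%, 56.3% and 74.8% in wild-type HSPCs. The difference between the cell types was not tested, each level rests on 1 library, and the B cell difference contains the library that chose the tiles.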

How the results depend on the processing

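Of 44 values recomputed with another setting, 32 stayed within 1.5 times the count or within the interval of the median reported. These 32 include counts of 0 that stayed 0, some with little left to test. With CpGs of at least 20 reads, 1 and 2 CpGs were left in the 2 comparisons. They also include medians over 9 and 13 tiles of 200 reads, so the tally does not measure robustness. For the HSPC genotype, called tiles became 1 with CpGs of at least 5 reads, 5 without thinning of neighbouring CpGs and 1 with the exact conditional test, against 0 reported, and for Sca1-BCL6Δ development 1 without thinning. Without thinning 1.75% of all tiles were called higher and 1.46% lower in the HSPC comparison, and shared reads are then counted more than once. No tile could be tested with CpGs of at least 20 reads. With 100 reads per tile (chosen after seeing the data), tiles higher by 20 points in Sca1-BCL6Δ HSPCs became 4 of 73, and in Sca1-BCL6Δ development 0 were higher and 2 lower of 68. With the loss rate of wild-type HSPCs applied (also chosen after seeing the data for pooled levels), 3 were higher and 9 lower, and the median difference was -9.12 points, which that removal produces by construction. The median in wild-type HSPCs was 80.2% over 33 tiles of 200 reads, the cause was not tested. Counting only CpGs with 5 or more wild-type B cell reads left 68 tiles, since fewer CpGs then count. No paired analysis was possible because each condition has 1 library. Depth limits the tests: of 135 tiles, 28 and 23 had enough deep CpGs.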
